A study of Mus musculus with 14 samples.

Results

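The 11 libraries of BAPN-fed aortas were set together against 3 PBS libraries, out of 14 libraries in all, and changes common to every BAPN-fed group were sought. The libraries are bulk RNA sequencing of ascending aortic tissue of C57BL/6 mice, taken at 6 weeks of modelling of thoracic aortic aneurysm. There were 4 libraries of BAPN, 3 of BAPN+Cilengitide, 4 of BAPN+SB273005 and 3 of PBS. BAPN (β-aminopropionitrile) was given to every group but PBS, and Cilengitide and SB273005 are named in the labels as inhibitors of integrin αV. The labels give no dose, age or sex, and nothing in them states that each library is a separate animal. The p-values below therefore measure the spread between these samples, which may be technical. The tissue holds every cell layer of the vessel, and in bulk RNA fewer cells of a type and less RNA per cell cannot be told apart.

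BAPN blocks lysyl oxidases, the copper enzymes that oxidise lysines of collagen and elastin so that the fibres cross-link. Without these cross-links the elastic lamellae of a growing aorta weaken, and the wall can widen or tear. Integrins with the αV subunit bind the RGD motif of matrix proteins such as osteopontin and fibronectin, and help to release active TGF-β from its latent complex. Smooth muscle cells make most of the matrix and carry the contractile proteins of the wall, while macrophages enter it in aneurysm.

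Total counts ran from 49027885 to 72584877 per BAPN-fed library and from 52584649 to 67041585 per PBS library. The smooth muscle genes Acta2 and Myh11 were present in every library, at 548 to 6417 FPKM and 70.2 to 615 FPKM in BAPN-fed aortas, against 4646 to 6041 FPKM and 701 to 809 FPKM in PBS aortas. FPKM are fragment numbers scaled for gene length and library depth, so levels of different genes can be set side by side. Replicate 2 of BAPN+SB273005 stood apart, with Acta2 at 548 FPKM, where the other BAPN-fed libraries had at least 2724 FPKM. H2-Ea, whose product the C57BL/6 strain is known to lack, had 83 to 130 counts in 8 of the 11 BAPN-fed libraries and 0 counts in BAPN+SB273005 replicates 1 to 3 and in PBS. The PBS libraries thus share their state of H2-Ea with 3 BAPN-fed libraries only, and for BAPN and BAPN+Cilengitide this state and the feeding cannot be told apart. A common change, as defined next, also had to lie beyond PBS in those 3 libraries, though by any amount. All 3 were given SB273005, so in them feeding and inhibitor cannot be told apart.

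A gene was called when the mean of the 3 BAPN-fed groups differed from PBS at an adjusted p of 0.05 or less in edgeR's quasi-likelihood test, over the 13294 genes that reached 1 FPKM in 3 libraries or more. It counted as a common change when, in addition, each BAPN-fed group lay on the same side of PBS and no BAPN-fed library overlapped a PBS library in FPKM. By itself, the lack of overlap held for 1012 genes (7.61%), 466 of them higher (3.51%) and 546 lower (4.11%). A gene under 1 FPKM in every PBS library was tested only because BAPN-fed libraries reached that level, which favours rises there over falls. In all, 1224 genes (9.21% of those tested) were called, 742 of them higher in BAPN-fed aortas (5.58%) and 482 lower (3.63%). Of these, 692 genes (5.21%) met the rule for a common change, 413 of them rises (3.11%) and 279 falls (2.1%), and 669 of the 692 were protein-coding. The other 532 called genes overlapped in at least 1 library or had unlike signs. The median log2 difference over all genes tested was -0.00465. These shares and this median are the background for the list counts and medians given below. Common rises were larger than common falls, with medians of 1.22 and -0.594 on the log2 scale. The nearest BAPN-fed library of a common rise was, in the median, 1.17 times the highest PBS library, and the same gap for falls was 1.11. In 27 genes the gap was over 2-fold, and these were all rises. The count and its members rested on each PBS library. Without PBS replicates 1, 2 and 3, 543, 257 and 526 genes met the rule. Of these, 348, 232 and 358 were among the 692, and the others were new.

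**Figure D1:**
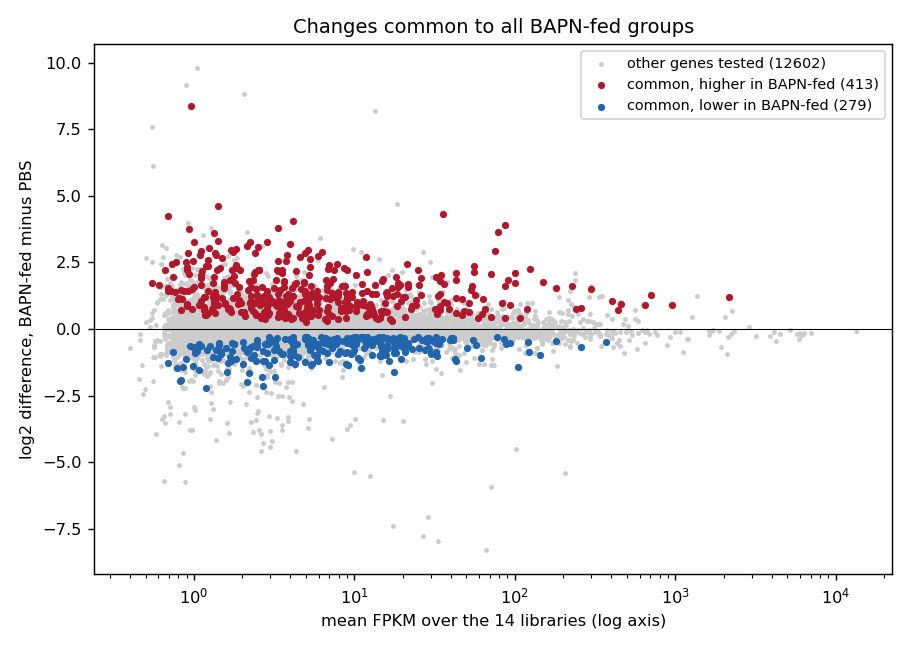
Log2 difference of BAPN-fed minus PBS aortas in edgeR (vertical axis) against mean FPKM over the 14 libraries (horizontal, log axis), 1 point for each gene tested. Red points are the 413 common rises and blue points the 279 common falls; rises reach 8.36 and falls -2.23, and many of the largest differences in either direction are grey, not meeting the rule.

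Among the genes with the smallest p, Ms4a4a, Ide and Hes1 had differences from PBS of nearly the same size in all 3 BAPN-fed groups. Ms4a4a, a membrane gene of macrophages at chr19:11375523-11392790, was at 3.28, 3.85 and 5.49 FPKM in BAPN-fed aortas (lowest, median and highest of 11 libraries), against 0.796, 0.819 and 1.03 FPKM in the 3 PBS aortas. The lowest BAPN-fed library was more than 3 times the highest PBS library, and the log2 difference was 2.2 ± 0.21 (SE, edgeR adjusted p = 0.000514). Against PBS alone it rose by 2.07 ± 0.22 with BAPN, 2.28 ± 0.23 with BAPN+Cilengitide and 2.27 ± 0.22 with BAPN+SB273005. Ide, the insulin-degrading enzyme at chr19:37268743-37330613, was at 6.07, 8 and 8.64 FPKM in BAPN-fed aortas, against 15.1, 15.1 and 15.6 FPKM in PBS aortas. Every BAPN-fed library lay well under every PBS library, and the log2 difference was -0.92 ± 0.09 (SE, edgeR adjusted p = 0.000514). With BAPN, BAPN+Cilengitide and BAPN+SB273005, in that order, it fell by 0.9, 0.95 and 0.91. Whether the PBS mice differed from the others in Ide for a reason other than feeding was not tested. Hes1, a repressor induced by Notch, was at 11.4, 13.1 and 15.8 FPKM in BAPN-fed aortas, against 8.52, 7.01 and 7.38 FPKM in PBS aortas. The groups did not overlap (log2 difference 0.84 ± 0.1, edgeR adjusted p = 0.00129), and Hes1 rose by 0.79 ± 0.11 with BAPN, 0.91 ± 0.12 with BAPN+Cilengitide and 0.83 ± 0.11 with BAPN+SB273005. Ndrg1, a gene of the response to low oxygen, and Thy1, a surface protein of fibroblasts and T cells, rose by 0.86 ± 0.08 and 1.66 ± 0.19 (edgeR adjusted p = 0.000514 and 0.00129). Ifi207, of the interferon-inducible p200 family, was at 1.98 to 4.54 FPKM in BAPN-fed aortas, against 0.643 to 0.681 FPKM in PBS aortas, a log2 difference of 2.21 ± 0.27 (SE, edgeR adjusted p = 0.0014). Ifi207 was thus tested only through BAPN-fed libraries, since no PBS library reached 1 FPKM, which favours a rise. Ms4a4a and Ifi207 have near-identical relatives, and reads shared with those make their levels uncertain.

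Counted group by group, 28 genes (0.211% of those tested) passed against PBS in each of the 3 BAPN-fed groups, 23 as rises (0.173%) and 5 as falls (0.0376%), and 27 of them were common changes. The 3 contrasts share the PBS libraries. Ccl6, a chemokine gene, was the one of the 28 that was not common, since BAPN+SB273005 replicate 2 at 8.86 FPKM lay under PBS replicate 1 at 9.46 FPKM. The 5 falls were Ide, Abcb9, Prdm6, Tsc22d1 and Foxp4, of which the last 3 were picked out after their values were seen. Abcb9, a peptide transporter of lysosomes, was at 2.42, 3.38 and 4.32 FPKM in BAPN-fed aortas, against 6.82, 6.14 and 5.32 FPKM in PBS aortas. Prdm6, a repressor known from vascular smooth muscle, was at 10.9, 13.5 and 16.6 FPKM in BAPN-fed aortas, against 24.5, 22.4 and 24.2 FPKM in PBS aortas. In both genes all BAPN-fed libraries lay under all PBS libraries, with log2 differences of -0.81 ± 0.08 (SE, edgeR adjusted p = 0.000523) and -0.73 ± 0.09 (SE, edgeR adjusted p = 0.0014). Tsc22d1, named for its induction by TGF-β, fell by 0.85 ± 0.1 (edgeR adjusted p = 0.00146), and Foxp4, a forkhead factor, had 10.4 to 12.5 FPKM in BAPN-fed aortas against 13.4 to 16.1 FPKM in PBS aortas (log2 difference -0.38 ± 0.07, edgeR adjusted p = 0.00685). The Foxp4 call ended without PBS replicate 2 (edgeR adjusted p = 0.0575). The count was 2 without PBS replicate 2 and 152 without BAPN+SB273005 replicate 2, the lowest and highest with 1 library left out.

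**Figure D2:**
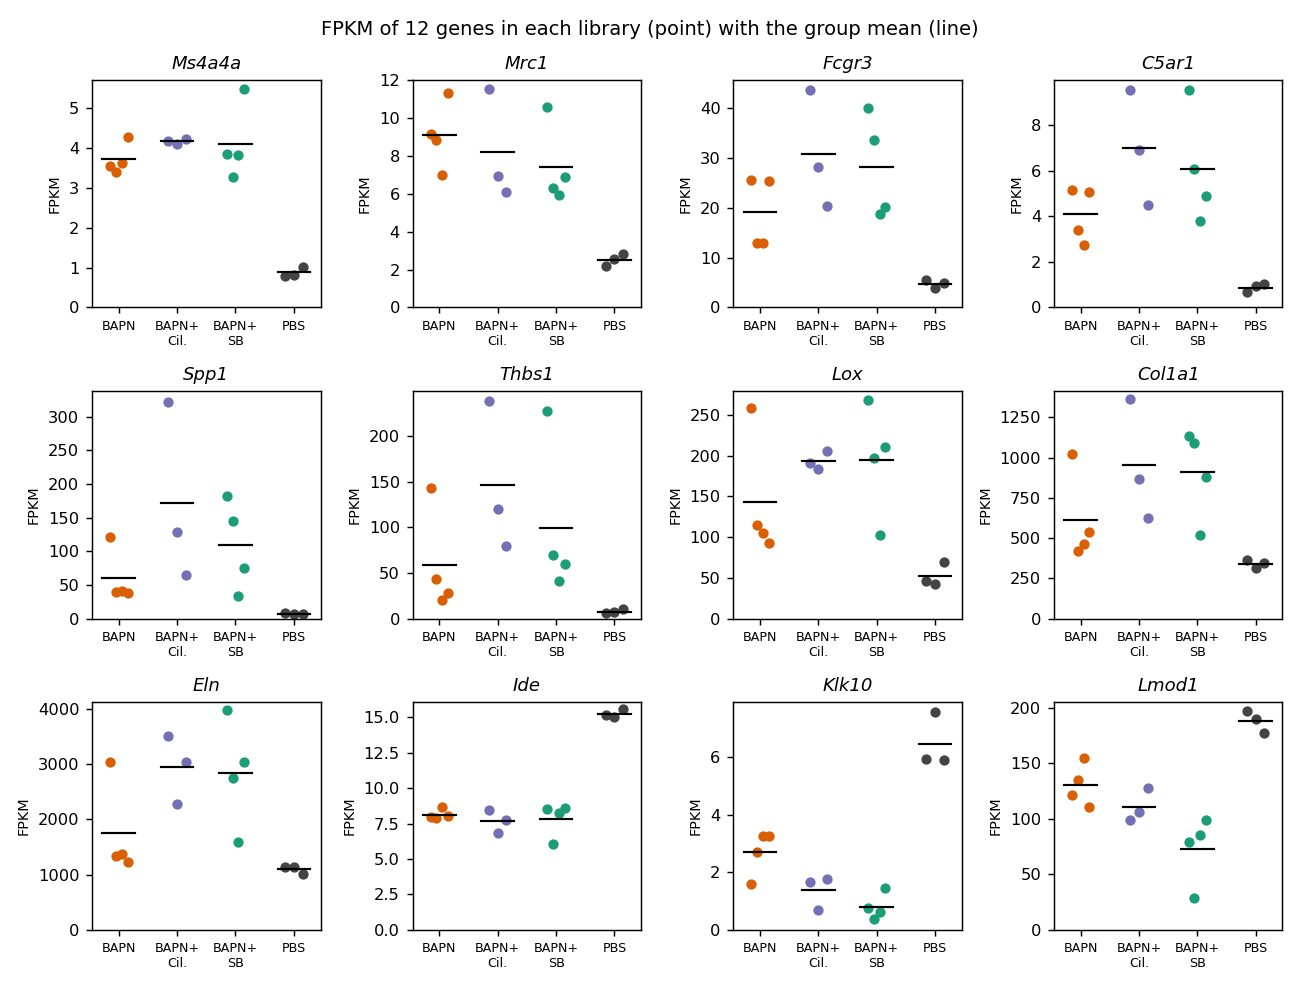
FPKM (vertical axes, each from 0) of 12 genes in every library (points) by group, with the group mean as a line. In each panel every BAPN-fed point is on the same side of the 3 PBS points, with the nearest libraries more than 3-fold apart in Ms4a4a and Spp1 and close together in Eln and Col1a1.

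The promoters of the common rises were searched for the AP-1 site, the motif of the Fos and Jun factors, because matrix metalloproteinases and chemokines that such sites are known to serve stood among them. RefSeq promoters on GRCm38.p6 run from 250 bases before to 50 bases after a gene's start and were matched by symbol. The letters searched, on both strands, were TGANTCA, with N any base. This is looser than the usual TGAGTCA or TGACTCA, so the shares also count other forms. A match was in 9.9% of 394 promoters of common rises (304 of 413 genes matched), in 4.11% of 292 promoters of common falls (221 of 279 genes) and in 5.15% of 12204 promoters of all genes tested. The core site of PU.1, a factor of macrophages (GAGGAAGT, both strands), was in 4.31%, 1.71% and 2.98% of the same promoters, and the CArG box of serum response factor, which governs contractile genes, in 2.28%, 1.71% and 1.33%. In 1 promoter the AP-1 match overlapped a match of another of these motifs. Of the 57 common rises considered by name, 39 had a promoter and 4 of these held a TGANTCA match. It reads TGAGTCA in Mmp3 and Ltbp3, but TGAATCA in Ccl9 and TGATTCA in Ms4a7, which are not the usual form. They are printed 5′ to 3′ on the strand of the gene, with the matched site in capitals, to show where it stands: Mmp3, which encodes stromelysin-1 (chr9:7445572-7445871, plus strand, 46 bases before the start), Ccl9, a chemokine gene (chr11:83578587-83578886, minus strand, 53 bases before), Ms4a7, a membrane gene of macrophages (chr19:11334646-11334945, minus strand, 81 bases before), and Ltbp3, a latent TGF-β binding protein (chr19:5740650-5740949, plus strand, 6 bases before). Distances run from the first base of a match, so that of Ltbp3 reaches the start. The printed Ms4a7 promoter lies inside the span deposited for that gene (chr19:11321039-11336144), so the start used is an internal one. A match describes letters and shows no binding.
Mmp3: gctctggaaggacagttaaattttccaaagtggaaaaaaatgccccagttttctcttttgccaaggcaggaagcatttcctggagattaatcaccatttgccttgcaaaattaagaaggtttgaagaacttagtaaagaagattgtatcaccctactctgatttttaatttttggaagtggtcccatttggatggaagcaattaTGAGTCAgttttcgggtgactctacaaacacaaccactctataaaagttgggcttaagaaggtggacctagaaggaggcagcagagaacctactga
Ccl9: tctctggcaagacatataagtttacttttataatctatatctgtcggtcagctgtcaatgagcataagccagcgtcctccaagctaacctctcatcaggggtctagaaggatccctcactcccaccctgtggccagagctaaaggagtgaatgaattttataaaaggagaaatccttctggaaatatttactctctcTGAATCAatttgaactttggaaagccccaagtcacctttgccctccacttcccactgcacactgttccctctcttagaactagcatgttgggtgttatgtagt
Ms4a7: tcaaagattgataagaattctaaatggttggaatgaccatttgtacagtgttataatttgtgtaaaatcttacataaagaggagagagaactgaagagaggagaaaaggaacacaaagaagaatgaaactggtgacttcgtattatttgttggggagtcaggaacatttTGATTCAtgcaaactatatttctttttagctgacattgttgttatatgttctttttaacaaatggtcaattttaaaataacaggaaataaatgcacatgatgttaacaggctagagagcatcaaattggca
Ltbp3: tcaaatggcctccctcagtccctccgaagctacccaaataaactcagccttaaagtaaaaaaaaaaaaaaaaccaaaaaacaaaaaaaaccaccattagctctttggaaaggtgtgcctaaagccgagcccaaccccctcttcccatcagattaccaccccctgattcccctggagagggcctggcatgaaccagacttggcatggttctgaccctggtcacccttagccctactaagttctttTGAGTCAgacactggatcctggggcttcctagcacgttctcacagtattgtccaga

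Most macrophage and monocyte genes rose in BAPN-fed aortas. Of 24 genes tested, 24 were higher in BAPN-fed aortas, 21 rose and 19 were common changes, with a median log2 difference of 2.16, against 5.58% of all genes rising. C5ar1, the receptor of complement C5a, was at 2.73, 5.06 and 9.55 FPKM in BAPN-fed aortas, against 0.676, 0.939 and 1.01 FPKM in PBS aortas. Fcgr3, an Fcγ receptor, was at 12.9, 25.4 and 43.7 FPKM in BAPN-fed aortas, against 5.43, 3.92 and 4.96 FPKM in PBS aortas. In both genes the lowest BAPN-fed library was more than 2 times the highest PBS library, and the log2 differences were 2.69 ± 0.35 (SE, edgeR adjusted p = 0.00221) and 2.46 ± 0.34 (SE, edgeR adjusted p = 0.00271). Mrc1, the mannose receptor of resident and repair macrophages, was at 5.92, 6.98 and 11.6 FPKM in BAPN-fed aortas, against 2.18, 2.58 and 2.81 FPKM in PBS aortas, with no overlap (log2 difference 1.73 ± 0.24, edgeR adjusted p = 0.00254). Cd14, the co-receptor of lipopolysaccharide, rose by 2.13 ± 0.28 (edgeR adjusted p = 0.00221).

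Other myeloid genes were close to absent in PBS aortas. Clec4d, Cx3cr1 and Ms4a7 were under 1 FPKM in every PBS library and were tested only through BAPN-fed libraries, which favours rises. Clec4d, a C-type lectin of macrophages and neutrophils, was at 0.336, 1.57 and 5.1 FPKM in BAPN-fed aortas, against 0.0737, 0.0506 and 0.0562 FPKM in PBS aortas, a log2 difference of 4.62 ± 0.85 (SE, edgeR adjusted p = 0.00758). Every BAPN-fed library lay above every PBS library, and BAPN replicates 3 and 4 were the nearest. Cx3cr1, the fractalkine receptor, was at 0.735, 3.09 and 9.28 FPKM in BAPN-fed aortas, against 0.546, 0.167 and 0.184 FPKM in PBS aortas, and BAPN replicates 2 to 4 lay nearest to PBS. Ms4a7 was at 0.636, 1.64 and 6.11 FPKM in BAPN-fed aortas, against 0.334, 0.19 and 0.325 FPKM in PBS aortas (log2 difference 3.26 ± 0.71, edgeR adjusted p = 0.015), with the groups apart. The summed level of the macrophage list was 391 to 1359 FPKM in BAPN-fed libraries, against 182 to 345 FPKM in PBS libraries. Within the 6 libraries without H2-Ea counts, BAPN+SB273005 replicates 1 to 3 had a median difference of 2.57 from PBS for the list, and 18 of 24 genes passed. The count of rises was 13 without PBS replicate 2, where the Ms4a7 and Cx3cr1 calls ended (edgeR adjusted p = 0.0842 and 0.0825). Without PBS replicate 3 it was 14 and the same 2 calls ended (edgeR adjusted p = 0.0549 and 0.0649), and the Ms4a7 call also ended without PBS replicate 1 (edgeR adjusted p = 0.0544).

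Chemokine genes rose with them. Of 18 chemokine and cytokine genes tested out of 26, 13 rose, 9 of them as common changes, and 1 fell, with a median log2 difference of 1.85. Ccl17, a chemokine that draws CCR4-bearing T cells, had 12 to 80 counts in each BAPN-fed library and 0 in each PBS library. It was thus tested through BAPN-fed libraries alone. Its 448 counts in BAPN-fed libraries made it at least 44.0-fold higher, taking 3 counts for PBS as a whole as the floor. This limit holds for counting error alone (edgeR adjusted p = 0.00325). Ccl9, a myeloid chemokine, was at 6.2, 12.9 and 17.9 FPKM in BAPN-fed aortas, against 3.88, 2.3 and 3.07 FPKM in PBS aortas. All BAPN-fed libraries lay above all PBS libraries (log2 difference 2.02 ± 0.3, edgeR adjusted p = 0.00319). Ccl3, or MIP-1α, was at 0.22, 1.03 and 2.52 FPKM in BAPN-fed aortas, against 0.0467, 0.07 and 0.125 FPKM in PBS aortas, again apart (log2 difference 3.75 ± 0.67, edgeR adjusted p = 0.00685). Like Ccl17, it was tested only through BAPN-fed libraries, which favours rises, and both genes stand in the count of rises. The gene that fell was Cxcl13, a B-cell chemokine picked out after its values were seen. It had 0.248 to 1.43 FPKM in BAPN-fed aortas and 52.3, 0.415 and 0.285 FPKM in PBS aortas, so PBS replicate 1 alone stood high. The count of rises was 6 without PBS replicate 1, 4 without PBS replicate 2 and 6 without PBS replicate 3, and 5 within the libraries without H2-Ea counts.

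Of 12 complement genes tested, 8 were common rises, with a median log2 difference of 1.1, and 1 of the 8, C5ar1, is described above with the macrophage genes. The count of rises was 6, 5 and 5 without PBS replicates 1, 2 and 3. C1s1, a protease of the classical pathway, was at 40.1, 60.3 and 92.2 FPKM in BAPN-fed aortas, against 28.1, 27.4 and 25.3 FPKM in PBS aortas. C4b, which that protease cleaves, was at 15.3, 38.5 and 68.4 FPKM in BAPN-fed aortas, against 12.5, 9.86 and 12.5 FPKM in PBS aortas. The PBS values of both genes were tight and lay under every BAPN-fed value, with log2 differences of 1.29 ± 0.18 (SE, edgeR adjusted p = 0.00254) and 1.8 ± 0.32 (SE, edgeR adjusted p = 0.00685). C1ra, the neighbour of C1s1 on chromosome 6 and its partner protease, rose by 1.15 ± 0.17 (edgeR adjusted p = 0.00275), and 7 of 12 genes of the list passed within the libraries without H2-Ea counts. Of the neutrophil list, 3 of 10 genes were expressed highly enough to be tested, and all 3 were common rises. All 3 were under 1 FPKM in every PBS library. They were tested only because BAPN-fed libraries reached that level, so this count of rises was largely set in advance. S100a8 and S100a9, the calprotectin subunits, were at 0.416, 0.808 and 1.35 FPKM and 0.789, 1.41 and 3.62 FPKM in BAPN-fed aortas, against 0.133, 0 and 0 FPKM and 0.24, 0.211 and 0 FPKM in PBS aortas. These levels were low and the groups did not overlap (log2 difference 4.26 ± 0.76, edgeR adjusted p = 0.00685 and log2 difference 3.32 ± 0.65, edgeR adjusted p = 0.0101). Csf3r, the G-CSF receptor, rose by 2.78 ± 0.52, a call that ended without PBS replicate 2 (edgeR adjusted p = 0.00851 and 0.0527). The defining neutrophil marker Ly6g reached 4 counts in the highest BAPN-fed library and 0 counts in PBS.

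The genes of the enzymes that BAPN inhibits were higher in BAPN-fed aortas. Of 5 lysyl oxidase genes, 4 rose and 3 were common changes, with a median log2 difference of 0.76, and 2 rose without PBS replicate 1 or 2. Lox was at 93, 191 and 268 FPKM in BAPN-fed aortas, against 45.8, 42.8 and 69.3 FPKM in PBS aortas. The groups did not overlap, and the log2 difference was 1.77 ± 0.35 (SE, edgeR adjusted p = 0.0109). Loxl3, needed for cross-links of some cartilages and tendons in mice, was at 23.1, 34.9 and 47.8 FPKM in BAPN-fed aortas, against 21.8, 21.3 and 20.5 FPKM in PBS aortas, and BAPN replicate 4 lay nearest to PBS (log2 difference 0.76 ± 0.13, edgeR adjusted p = 0.00684). Loxl4, the least abundant of the family, rose by 0.96 ± 0.19 (edgeR adjusted p = 0.0106). Loxl2 rose by 0.73 ± 0.16 (edgeR adjusted p = 0.0141) but overlapped PBS in BAPN+SB273005 replicates 2 and 3, and Loxl1, the last of the 5 and picked out after its values were seen, had a difference of 0.49 ± 0.17 that missed the threshold (edgeR adjusted p = 0.0817). The Lox call ended without PBS replicate 1 and without PBS replicate 2 (edgeR adjusted p = 0.051 and 0.0692), as did that of Loxl2 (edgeR adjusted p = 0.074 and 0.0847). Within the libraries without H2-Ea counts the Lox difference was 1.93 (edgeR adjusted p = 0.0503), and 1 of 5 genes, Loxl3, passed.

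Of 16 elastic fibre genes tested, 6 rose and 5 were common changes, with a median log2 difference of 0.44. The count of rises was 1, 1 and 2 without PBS replicates 1, 2 and 3. Eln, which encodes tropoelastin, was at 1237, 2743 and 3981 FPKM in BAPN-fed aortas, against 1146, 1130 and 1017 FPKM in PBS aortas. No library overlapped, but BAPN replicates 2 to 4 lay close above PBS and the call was near the threshold (log2 difference 1.19 ± 0.35, edgeR adjusted p = 0.0491). It ended when any 1 of 11 libraries was left out (edgeR adjusted p of 0.0535 to 0.167), among them each PBS replicate, BAPN replicates 2 to 4, each BAPN+Cilengitide replicate and BAPN+SB273005 replicates 1 and 4. Fbn1, the fibrillin gene of Marfan syndrome, was at 37.5, 55.6 and 94.5 FPKM in BAPN-fed aortas, against 27.9, 28 and 34.7 FPKM in PBS aortas, also apart (log2 difference 0.97 ± 0.26, edgeR adjusted p = 0.0337). That call ended without each PBS replicate and without BAPN+Cilengitide replicate 1 or 2 (edgeR adjusted p of 0.0539 to 0.138). Ltbp2, a fibrillin-binding protein, was at 44.1, 115 and 232 FPKM in BAPN-fed aortas, against 33.5, 34.7 and 38.8 FPKM in PBS aortas, with no overlap (log2 difference 1.72 ± 0.32, edgeR adjusted p = 0.00761), and its call held without each library. Fbln2, a fibulin, rose by 1.14 ± 0.25 (edgeR adjusted p = 0.015), a call that ended without PBS replicates 1 and 2 (edgeR adjusted p = 0.0748 and 0.0615). Ltbp3 rose by 0.41 ± 0.12 with its nearest libraries at 72 FPKM in BAPN replicate 2 and 71.8 FPKM in PBS replicate 1 (edgeR adjusted p = 0.0425), and the call ended without any 1 of 12 libraries (edgeR adjusted p of 0.0516 to 0.167). Emilin2, picked out after its values were seen, rose by 0.59 ± 0.17 with overlap (edgeR adjusted p = 0.0445), and 11 of the 14 libraries, each left out in turn, ended its call (edgeR adjusted p of 0.0541 to 0.194).

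All 8 fibrillar collagen genes tested were higher in BAPN-fed aortas, and 4 were common rises, with a median log2 difference of 1.14. Col1a1, the α1 chain of type I collagen, was at 419.6, 869 and 1362 FPKM in BAPN-fed aortas, against 365, 314 and 344 FPKM in PBS aortas. The lowest values, in BAPN replicates 2 and 3, lay just above PBS (log2 difference 1.28 ± 0.34, edgeR adjusted p = 0.0337). Col1a2, its partner chain, and Col5a2 and Col5a3, of type V collagen that sets fibril width, rose by 0.93 ± 0.27, 0.99 ± 0.23 and 1.59 ± 0.43 (edgeR adjusted p = 0.0474, 0.0216 and 0.036). None of the 4 calls held without PBS replicate 1, 2 or 3, when 0 genes of the list passed (edgeR adjusted p of 0.106 to 0.138 for Col1a1, 0.127 to 0.166 for Col1a2, 0.0591 to 0.102 for Col5a2 and 0.0846 to 0.15 for Col5a3). Those of Col1a1, Col1a2 and Col5a3 ended also without BAPN+Cilengitide replicate 1 or 2, that of Col5a3 without BAPN replicate 4, and that of Col1a2 without BAPN replicates 3 and 4 and BAPN+SB273005 replicates 1 and 4 (edgeR adjusted p of 0.0514 to 0.0756 over these cases).

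Matricellular proteins and ligands of αV integrins held some of the largest rises. Of 12 genes tested, 6 were common rises and 1 fell, with a median log2 difference of 1.44. Spp1, which encodes osteopontin, was at 33, 74.7 and 323 FPKM in BAPN-fed aortas, against 8.76, 6.32 and 6.34 FPKM in PBS aortas. Even its lowest library was more than 3 times the highest PBS library, and the log2 difference was 3.91 ± 0.68 (SE, edgeR adjusted p = 0.00667), or 15-fold. Thbs1, or thrombospondin-1, which can activate latent TGF-β, was at 20.9, 70.1 and 238 FPKM in BAPN-fed aortas, against 5.89, 6.93 and 10.3 FPKM in PBS aortas. Its BAPN-fed values spread widely and all stayed above PBS (log2 difference 3.65 ± 0.76, edgeR adjusted p = 0.0123). Comp, a cartilage and vessel glycoprotein, was at 27.1, 52.1 and 260.4 FPKM in BAPN-fed aortas, against 10.2, 11.1 and 11 FPKM in PBS aortas, with PBS values tight and low (log2 difference 2.94 ± 0.54, edgeR adjusted p = 0.00723). Tnc, or tenascin-C, rose by 1.59 ± 0.27 (edgeR adjusted p = 0.00598). Cthrc1, a protein of injured arteries, was at 4.27, 45.6 and 126 FPKM in BAPN-fed aortas, against 2.32, 1.74 and 2.35 FPKM in PBS aortas, and BAPN replicates 2 to 4 lay just above PBS (log2 difference 4.31 ± 1.16, edgeR adjusted p = 0.0361). Vtn, or vitronectin, was the one that fell (log2 difference -2.82 ± 0.63, edgeR adjusted p = 0.0168), with 0.339 to 2.99 FPKM in BAPN-fed aortas against 14.4, 4.39 and 0.581 FPKM in PBS aortas, which overlap. It was picked out after its values were seen, and without PBS replicate 1 or 2 its call ended (edgeR adjusted p = 0.212 and 0.0527). The Thbs1 call ended without PBS replicates 1 and 2 (edgeR adjusted p = 0.0559 and 0.0717), and the Cthrc1 call without each PBS replicate and BAPN+Cilengitide replicates 1 and 2 (edgeR adjusted p of 0.0511 to 0.146). The list had 3, 3 and 4 rises without PBS replicates 1, 2 and 3, and 7 genes passed within the libraries without H2-Ea counts.

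Among 10 proteoglycan genes tested, 2 rose, both as common changes (list median 0.47), where 5.58% of all genes tested rose. Without each PBS replicate 1 rose, and without BAPN+SB273005 replicate 2, 4 rose. Fmod, or fibromodulin, a small proteoglycan that binds collagen and steers its cross-linking, was at 64.8, 155 and 279 FPKM in BAPN-fed aortas, against 24.1, 33.7 and 36.4 FPKM in PBS aortas. No library overlapped, and the log2 difference of 2.25 ± 0.35 (SE, edgeR adjusted p = 0.00393) held without each library. Lum, or lumican, a relative of Fmod, rose by 1.62 ± 0.4 (edgeR adjusted p = 0.0256), which ended without each PBS replicate (edgeR adjusted p of 0.0579 to 0.105). Of 9 chondrogenic and osteogenic genes tested, 1 rose with overlap (list median 0.77). That was Runx2, the osteoblast factor, at 0.183, 0.758 and 1.59 FPKM in BAPN-fed aortas, against 0.284, 0.203 and 0.235 FPKM in PBS aortas (log2 difference 1.62 ± 0.4, edgeR adjusted p = 0.0253, lost without each PBS replicate, edgeR adjusted p of 0.0723 to 0.118). Runx2 was tested only because BAPN-fed libraries reached 1 FPKM, which favours a rise.

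Some genes of enzymes that cut the matrix, and of their inhibitors, rose. Of 12 metalloproteinase and TIMP genes tested, 5 rose, 4 of them as common changes, and 7 did not pass, with a median log2 difference of 0.49. The count of rises was 3 without PBS replicate 1 and 3 without PBS replicate 2. Timp1, an inhibitor of metalloproteinases, was at 44.6, 81.4 and 129.5 FPKM in BAPN-fed aortas, against 20.1, 20.6 and 20.8 FPKM in PBS aortas. Its lowest BAPN-fed library was more than 2 times the highest PBS library (log2 difference 2.08 ± 0.37, edgeR adjusted p = 0.00685). Mmp3, which can activate other metalloproteinases, was at 21.4, 35.8 and 86.4 FPKM in BAPN-fed aortas, against 6.59, 12.8 and 11.7 FPKM in PBS aortas, with no overlap (log2 difference 2.03 ± 0.41, edgeR adjusted p = 0.0112). Mmp2, or gelatinase A, was at 98.3, 216 and 379.8 FPKM in BAPN-fed aortas, against 57.8, 70.1 and 85.5 FPKM in PBS aortas, again apart (log2 difference 1.55 ± 0.35, edgeR adjusted p = 0.0175), and Mmp19 rose by 1.36 ± 0.25 (edgeR adjusted p = 0.00723). The Mmp2 call ended without PBS replicates 1 and 2 (edgeR adjusted p = 0.0795 and 0.081). Timp2, picked out after its values were seen, rose by 0.54 ± 0.15 with overlap (edgeR adjusted p = 0.0439) and ended without any 1 of 11 libraries (edgeR adjusted p of 0.0518 to 0.19). Of 11 genes in the cathepsin list, which holds the cathepsin inhibitor gene Cst3 beside 10 cathepsins, 11 were higher and 3 were common rises (list median 0.38). Ctsk, a lysosomal elastase and collagenase, was at 29.5, 64.6 and 111 FPKM in BAPN-fed aortas, against 20, 19.2 and 22.9 FPKM in PBS aortas. Cst3, or cystatin C, the secreted inhibitor of cathepsins, was at 735, 1132 and 1498 FPKM in BAPN-fed aortas, against 553, 612 and 594 FPKM in PBS aortas. Both genes were apart from PBS in every library (log2 difference 1.62 ± 0.34, edgeR adjusted p = 0.0127 and log2 difference 0.89 ± 0.14, edgeR adjusted p = 0.00443), and Ctsl, a cathepsin of macrophages, rose by 0.65 ± 0.11 (edgeR adjusted p = 0.00638). The Ctsk call ended without PBS replicates 1 and 2 (edgeR adjusted p = 0.0548 and 0.0701).

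**Figure D3:**
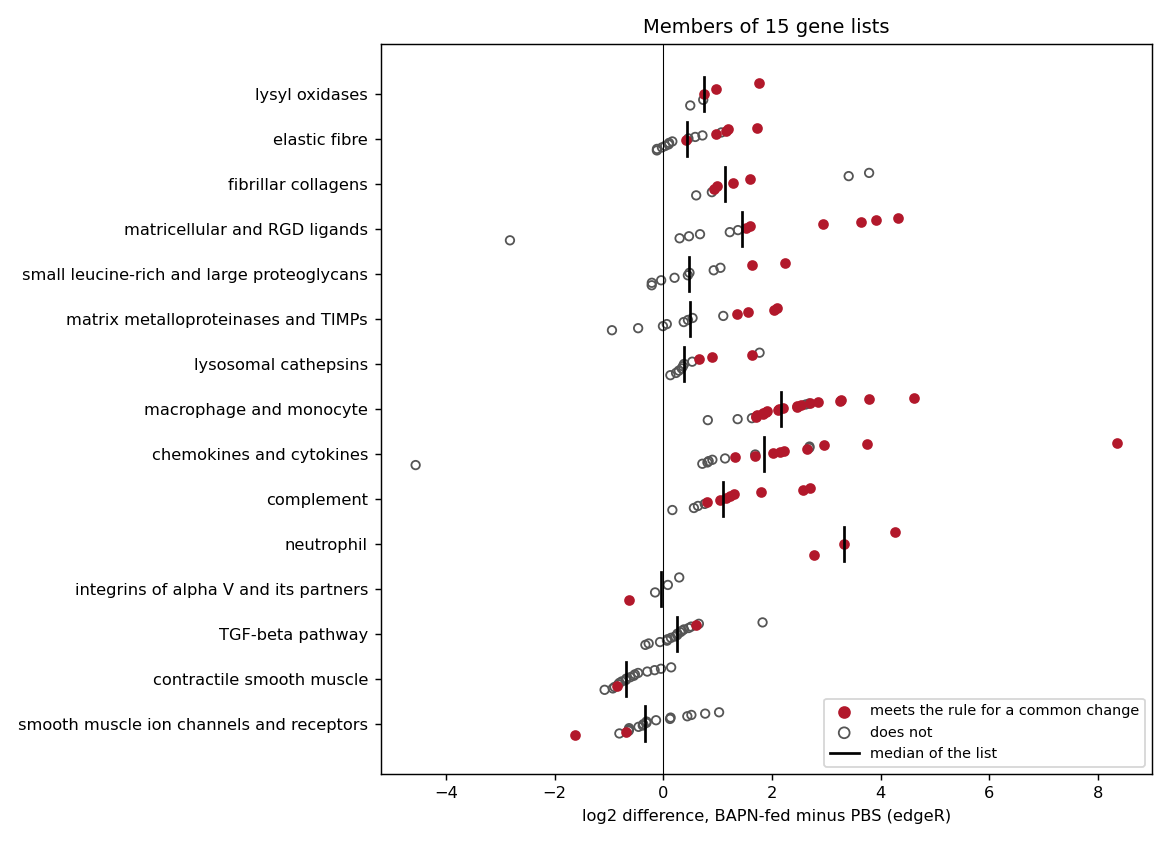
Log2 difference of BAPN-fed minus PBS aortas in edgeR (horizontal axis) for the tested members of 15 gene lists (rows), 1 point a gene, with the list median as a bar. Filled points are common changes: 19 of 24 macrophage genes and 9 of 18 chemokine genes are filled on the right, while contractile smooth muscle genes sit mostly left of 0 with 1 filled.

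Of the 4 integrin genes tested, for αV and its partner subunits, 1 passed the test. Itgav, the αV subunit, was at 6.33, 9.58 and 10.8 FPKM in BAPN-fed aortas, against 8.7, 7.67 and 9.9 FPKM in PBS aortas, and the ranges overlapped (log2 difference 0.08 ± 0.12, edgeR adjusted p = 0.745). Itgb3, the β3 subunit, was at 5.43, 14.3 and 16.6 FPKM in BAPN-fed aortas, against 20.9, 22.6 and 17.5 FPKM in PBS aortas. It was the 1 that passed, a common fall of 0.63 ± 0.17 (edgeR adjusted p = 0.0371; list median -0.04), and its call ended without any 1 of 11 libraries, of which 3 were PBS (edgeR adjusted p of 0.0517 to 0.207). Of 17 TGF-β pathway genes, 5 rose and 1 was a common change, with a median log2 difference of 0.26. Over all genes tested, 5.58% rose and 3.11% were common rises. Tgfbi, a TGF-β-induced matrix protein, was at 36.9, 45.2 and 62.2 FPKM in BAPN-fed aortas, against 25.5, 32.8 and 33.8 FPKM in PBS aortas, just apart (log2 difference 0.61 ± 0.17, edgeR adjusted p = 0.0414). Tgfb3 rose by 0.65 ± 0.18, Smad2, which carries the signal to the nucleus, by 0.38 ± 0.09, and Acvrl1, a type I receptor of endothelium, by 0.31 ± 0.08, all with overlap (edgeR adjusted p = 0.0398, 0.0259 and 0.0357). Tgfb1 differed by 0.34 ± 0.18 (SE, edgeR adjusted p = 0.259). Without each PBS replicate the calls of Tgfbi, Tgfb3, Smad2 and Acvrl1 ended (highest edgeR adjusted p of 0.175 for Tgfbi, 0.177 for Tgfb3, 0.151 for Smad2 and 0.17 for Acvrl1), and 0 of the 17 passed within the libraries without H2-Ea counts. Counting BAPN-fed libraries too, leaving out any 1 of 8 libraries ended the Tgfbi call, any 1 of 10 that of Tgfb3 and any 1 of 8 that of Acvrl1.

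Contractile genes leaned the other way, but few passed. Of 17 tested, 16 were lower in BAPN-fed aortas, 5 did not overlap PBS (4.11% of all genes were lower without overlap) and 1 was called, with a median log2 difference of -0.68. Lmod1, or leiomodin-1, which seeds actin filaments, was at 28.6, 106 and 154 FPKM in BAPN-fed aortas, against 197, 190 and 177 FPKM in PBS aortas. Every BAPN-fed library was lower (log2 difference -0.85 ± 0.24, edgeR adjusted p = 0.0425), though the call ended without any 1 of 10 libraries, 3 of them PBS (edgeR adjusted p of 0.0504 to 0.164). Myh11, the smooth muscle myosin heavy chain, was at 70.2, 406 and 615 FPKM in BAPN-fed aortas, against 701, 749 and 809 FPKM in PBS aortas, and did not overlap but did not pass (log2 difference -0.9 ± 0.34, edgeR adjusted p = 0.121). Myl9, a myosin light chain, and Smtn, or smoothelin, also lay under PBS in every BAPN-fed library (edgeR adjusted p = 0.0865 and 0.0903). Acta2, smooth muscle actin, overlapped PBS (log2 difference -0.47 ± 0.38, edgeR adjusted p = 0.509). With BAPN+SB273005 replicate 2 left out, 8 of the 17 genes passed as lower.

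Among 18 tested ion channel and receptor genes of smooth muscle, 2 fell, both as common changes (list median -0.34), where 3.63% of all genes tested fell. Without PBS replicate 2 or 3, 1 fell, and without BAPN+SB273005 replicate 2, 4 fell. Adra1d, the α1D-adrenergic receptor of large arteries, was at 3.3, 11.9 and 18 FPKM in BAPN-fed aortas, against 51.7, 37.1 and 23.4 FPKM in PBS aortas. No library overlapped, and the log2 difference was -1.62 ± 0.25 (SE, edgeR adjusted p = 0.00379). Gucy1a1, a subunit of the nitric oxide receptor, fell by 0.68 ± 0.16 (edgeR adjusted p = 0.0208), which ended without PBS replicates 2 and 3 (edgeR adjusted p = 0.0724 and 0.137). The next genes, Hspb6 and Kcnh2, are not in that list and were named as common falls. Hspb6, a small heat shock protein of smooth muscle, was at 19.8, 84.5 and 127 FPKM in BAPN-fed aortas, against 178, 231 and 195 FPKM in PBS aortas, with the lowest value in BAPN+SB273005 replicate 2 (log2 difference -1.42 ± 0.3, edgeR adjusted p = 0.014), and its call ended without PBS replicate 2 (edgeR adjusted p = 0.0845). Kcnh2, the ERG potassium channel, was at 9.47, 14 and 21.5 FPKM in BAPN-fed aortas, against 28.4, 28.5 and 26.1 FPKM in PBS aortas, with a gap between the groups (log2 difference -0.9 ± 0.1, edgeR adjusted p = 0.00103).

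Klk10, a kallikrein-related protease at chr7:43781035-43785410, had one of the largest common falls. It was at 0.39, 1.59 and 3.26 FPKM in BAPN-fed aortas, against 5.94, 7.57 and 5.92 FPKM in PBS aortas. Its gap of 1.82-fold between the nearest libraries was the widest of the falls, and the log2 difference was -2.15 ± 0.32 (SE, edgeR adjusted p = 0.00319). Rab17, a small GTPase of membrane traffic, was at 0.206, 1.03 and 3.18 FPKM in BAPN-fed aortas, against 4.92, 5.84 and 3.92 FPKM in PBS aortas (log2 difference -2.0 ± 0.31, edgeR adjusted p = 0.0035). Gria1, an AMPA receptor subunit, Gkn3, a gastrokine, and Foxo6, a forkhead factor, fell by 1.93, 1.81 and 1.66 (edgeR adjusted p = 0.00624, 0.00254 and 0.00336). Gipc3, a PDZ protein, Tmem26 and Smim5, both membrane proteins, fell by 1.59, 1.47 and 1.46 (edgeR adjusted p = 0.00231, 0.0036 and 0.0014). Atcayos had the largest fall, 2.23 ± 0.28 (edgeR adjusted p = 0.00155), but it is named as antisense to Atcay, and without a stated strand setting its reads cannot be told from those of the overlapping gene. Lax1, an adaptor of lymphocytes, had 0.491, 1.42 and 3.22 FPKM in BAPN-fed aortas and 11.3, 3.38 and 3.27 FPKM in PBS aortas, so PBS replicate 1 stood high. Its log2 difference was -1.79 ± 0.42 (SE, edgeR adjusted p = 0.0211), and -1.03 without that library (edgeR adjusted p = 0.208). Among the 12 largest rises, Gpr176, an orphan receptor, was at 0.821, 5.17 and 11.5 FPKM in BAPN-fed aortas, against 0.484, 0.17 and 0.218 FPKM in PBS aortas, with no overlap (log2 difference 4.05 ± 0.66, edgeR adjusted p = 0.00443). Pkp1, a desmosomal plakophilin, rose by 3.6 ± 0.73 (edgeR adjusted p = 0.0113), a call lost without PBS replicates 2 and 3 (edgeR adjusted p = 0.0647 and 0.0507). Gpr176 and Pkp1 were under 1 FPKM in every PBS library and were tested only through BAPN-fed libraries, which favours rises.

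In the median, the common changes were smaller with BAPN alone than with either inhibitor added. The 413 common rises had a median log2 difference from PBS of 0.933 with BAPN, 1.36 with BAPN+Cilengitide and 1.40 with BAPN+SB273005, and the 279 common falls had medians of -0.474, -0.633 and -0.721. BAPN was the group with the smallest change in 343 of the 413 rises and in 218 of the 279 falls. For 144 rises the library nearest to PBS was BAPN replicate 3 and for 95 it was BAPN replicate 2, while BAPN replicate 1 was nearest for 7. Farthest from PBS were BAPN+SB273005 replicate 1 for 131 rises and BAPN+SB273005 replicate 2 for 106 rises and 135 falls. As single groups against PBS, 31 genes (0.233%) were called with BAPN, 742 (5.58%) with BAPN+Cilengitide and 1754 (13.2%) with BAPN+SB273005, and these share the PBS libraries. A test of equal means of the 3 BAPN-fed groups called 0 genes in edgeR and 0 with limma on log2(FPKM + 1), although 1629 genes, 227 of them among the 692 common changes, were at an unadjusted p of 0.05 or less. Without BAPN+SB273005 replicate 4 that test called 26 genes, without BAPN replicate 1 it called 9, and without BAPN+Cilengitide replicate 2 it called 1. The smallest p was that of Inka2, an inhibitor of the kinase PAK4, with differences from PBS of -0.56 ± 0.17 with BAPN, -1.16 ± 0.18 with BAPN+Cilengitide and -1.86 ± 0.17 with BAPN+SB273005 (edgeR adjusted p of the difference = 0.101). In the same order of groups, Igsf9, an adhesion molecule of the immunoglobulin family, had -0.71 ± 0.15, -1.29 ± 0.17 and -1.7 ± 0.15 (edgeR adjusted p of the difference = 0.117). Stk32b, a protein kinase, had 1.01 ± 0.18, 1.81 ± 0.19 and 2.01 ± 0.19 (edgeR adjusted p of the difference = 0.147).

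**Figure D4:**
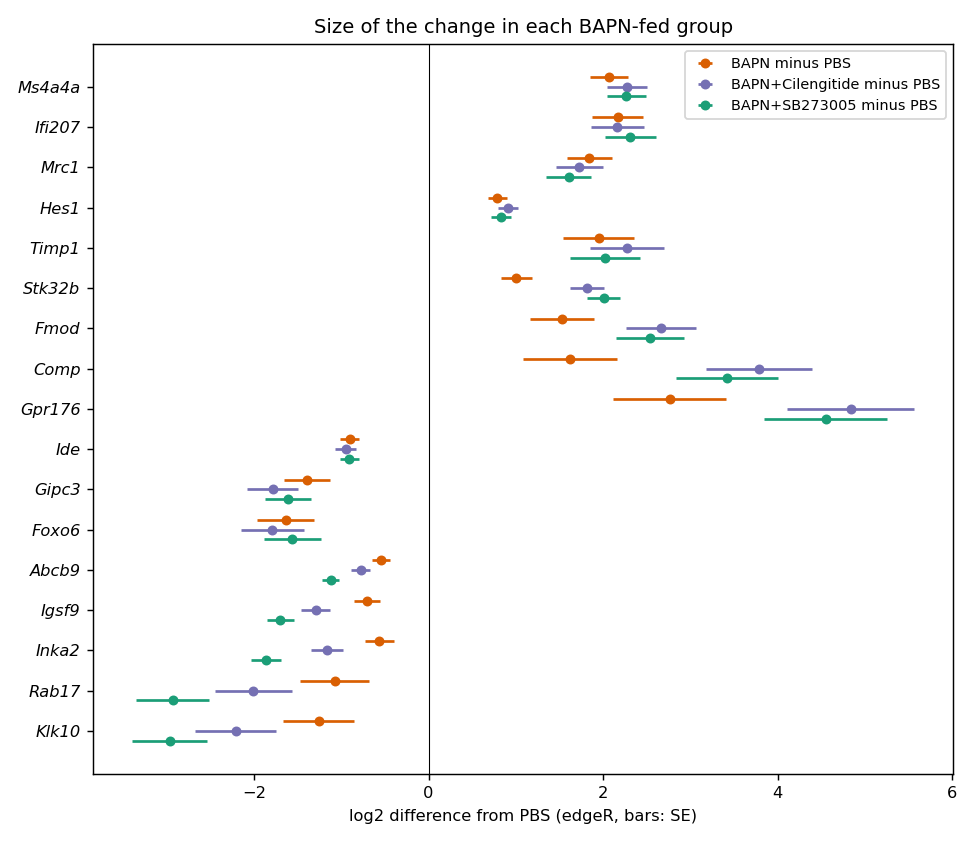
Log2 difference from PBS in edgeR with its SE (horizontal axis) for 17 genes (rows) in BAPN, BAPN+Cilengitide and BAPN+SB273005. Ms4a4a, Ifi207, Hes1 and Ide had nearly equal values in the 3 groups, while Inka2 ran from -0.56 with BAPN to -1.86 with BAPN+SB273005.

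**Figure D5:**
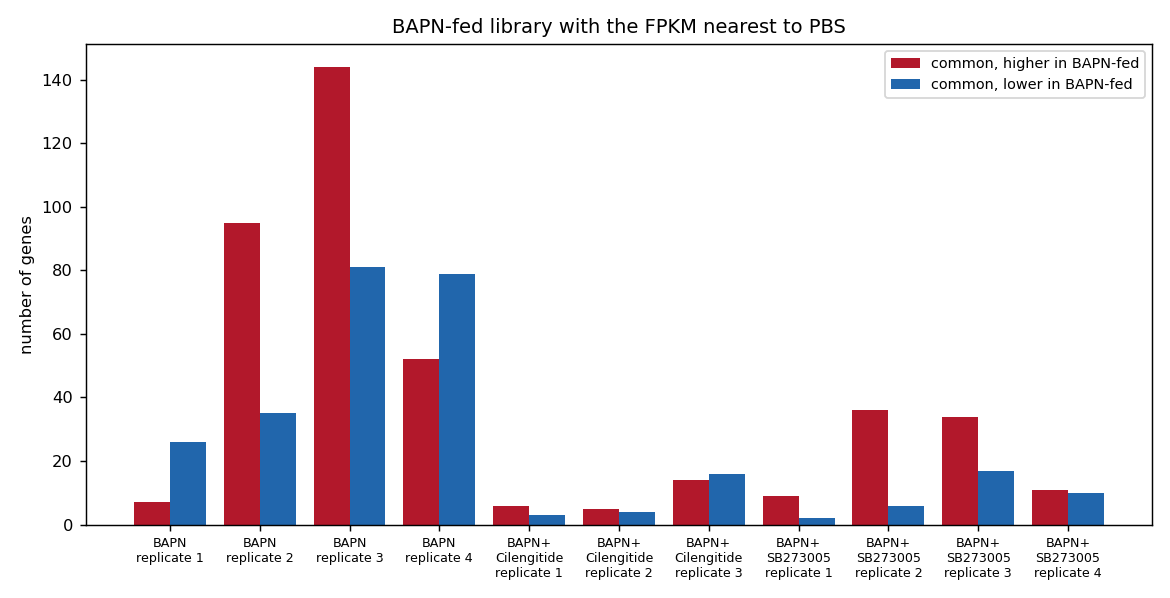
Number of common changes (vertical axis) for which each BAPN-fed library (horizontal axis) had the FPKM nearest to PBS, with rises in red and falls in blue. BAPN replicates 2 to 4 account for most of the 413 rises, led by replicate 3 with 144.

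Markers of other cells and tissues moved in parts of the data. The 10 hepatocyte genes tested were lower in BAPN-fed aortas and 9 were called, none as a common change (list median -3.4). Alb, or albumin, was at 1.19, 5.49 and 22.9 FPKM in BAPN-fed aortas, against 123, 68.4 and 6.24 FPKM in PBS aortas, so PBS replicates 1 and 2 stood high and the third overlapped. Without PBS replicate 1, 1 hepatocyte gene was called, and without PBS replicate 2, 5 were. The 5 B and plasma cell genes tested were called lower with overlap (list median -4.51, and 0.892 with 0 called without PBS replicate 1). Igkc, the κ light chain, was at 2.91, 11.2 and 86.2 FPKM in BAPN-fed aortas, against 2638, 11.4 and 9.6 FPKM in PBS aortas. Of 8 kidney tubule genes tested, 5 rose and 2 were common changes (list median 0.5), and 3 rose without each PBS replicate. Umod, or uromodulin, was at 8.94, 23 and 25.8 FPKM in BAPN-fed aortas, against 9.45, 7.73 and 8.28 FPKM in PBS aortas, with BAPN+SB273005 replicate 2 at 8.94 FPKM inside the PBS range. Within the libraries without H2-Ea counts the Umod difference was 0.38 (edgeR adjusted p = 0.145). Slc12a1, a kidney cotransporter, and Lrp2, or megalin, were common rises of 0.98 ± 0.16 and 0.52 ± 0.1 (edgeR adjusted p = 0.00441 and 0.00739), and within the libraries without H2-Ea counts their differences were 0.51 and 0.31 (edgeR adjusted p = 0.192 and 0.233). Lrp2 was under 1 FPKM in every PBS library, so it was tested only through BAPN-fed libraries. The part of these cells in the changes above was not tested.

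Among markers of endothelium, fibroblasts, heart muscle and mesothelium, few genes passed. Of all genes tested, 5.58% rose and 3.63% fell. Of 13 arterial endothelial genes, 1 was a common rise (list median 0.21), namely Gja4, a gap junction protein of arterial endothelium, at 12.1, 20 and 43.1 FPKM in BAPN-fed aortas, against 7.77, 10.9 and 11.7 FPKM in PBS aortas (log2 difference 1.2 ± 0.25, edgeR adjusted p = 0.0123). It lay just apart, and the call ended without PBS replicates 1 and 2 (edgeR adjusted p = 0.0615 and 0.0527). Of 12 adventitial fibroblast genes, 3 rose and 1 was a common change (list median 0.39). Col14a1, a collagen of fibril surfaces, was at 53.6, 70.4 and 87.1 FPKM in BAPN-fed aortas, against 33.9, 45 and 50 FPKM in PBS aortas (log2 difference 0.75 ± 0.2, edgeR adjusted p = 0.0328). Pdgfrl, and Fap, the fibroblast activation protease, rose by 0.98 ± 0.23 and 1.3 ± 0.35 with overlap (edgeR adjusted p = 0.0231 and 0.0346). Without PBS replicate 1 or 2 the calls of all 3 fibroblast genes ended, and those of Col14a1 and Fap also without PBS replicate 3 and without BAPN+Cilengitide replicate 2 for Col14a1 or replicate 1 for Fap (highest edgeR adjusted p of 0.147 for Col14a1, 0.1 for Pdgfrl and 0.127 for Fap). Of 12 cardiomyocyte genes, 1 fell (list median -0.06, and -0.45, 0.28 and 0.2 without PBS replicates 1, 2 and 3). That was Myh7, the β-myosin heavy chain, at 0.0329, 0.251 and 7.54 FPKM in BAPN-fed aortas, against 4.81, 5.08 and 4.51 FPKM in PBS aortas, where BAPN+SB273005 replicates 1 to 3 lay above PBS and all other BAPN-fed libraries far below. Those BAPN+SB273005 replicates are the BAPN-fed libraries without H2-Ea counts, so Myh7 split along the same line. Of 7 mesothelial genes, 1 fell with overlap (list median -0.71), the keratin Krt18 (log2 difference -1.24 ± 0.21, edgeR adjusted p = 0.00624).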

How the data were processed

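Per the labels' protocols, Trizol and SuperScript II served for RNA extraction and reverse transcription. The submitters' processing notes name HISAT2 2.2.1, StringTie 2.1.6 and the mm10 build. Neither the annotation nor any strand setting is stated there, which leaves overlapping genes and paralogs uncertain. The gene table deposited by the authors holds 32289 genes, each with FPKM values and estimated counts for all libraries. The transcript table was not used here, and the result of 1 called gene is not reported here.

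Estimated counts, as deposited, were fitted with edgeR 4.0.16 in R 4.3.3 (quasi-likelihood, TMM, 1 fit over 14 libraries with 4 groups). The contrast was the unweighted mean of the 3 BAPN-fed groups minus PBS. P-values were adjusted by Benjamini-Hochberg over the 13294 genes tested, which hold at least 98.84% of each library's counts. The SE of a difference is its size over the square root of F. Replicates, compared in 18 pairs, all differed beyond sampling noise, with a chi-square of at least 41.5 per degree of freedom. Each library was therefore treated as 1 sample, but this does not show that they came from separate animals.

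The members, 38 gene lists and tests were chosen with earlier results of these data known. Lists are given by counts and medians, with no test of a list. Genes were named by rule: the 12 largest common changes and the 6 smallest p each way, leaving out predicted gene models, up to 4 members of each list by p, and 16 fixed genes. Where 2 identifiers shared a symbol, the one with the higher mean FPKM was used. Alternatives were other filters and normalisations, DESeq2 1.42.0, limma 3.58.1, a 2-group fit, a replicate block, the H2-Ea library sets, and leaving out each library. The pipeline was tested on simulated data.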

Additional observations from a re-analysis of the deposited data

Results flagged for a closer look

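In groups of 4 libraries, single libraries stood apart from the other 3 of their group for the genes named, by Dixon's criterion at the 95% level. This happened in 27 of 222 pairs of a gene and a group of 4. A chance rate of 1 in 20 holds only for normal and independent values. FPKM were used here untransformed and the pairs share libraries, so no excess over chance can be read from the count. The 3 libraries set beside each value belong to the same group.

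BAPN replicate 1 was high for matrix and related genes. It had 92.5 FPKM of Cthrc1 (others 4.27 to 4.55), 121 of Spp1 (38.3 to 41.3), 258 of Lox (93 to 115), 3040 of Eln (1240 to 1370), 118 of Col5a2 (62 to 69.8), 158 of Fmod (64.8 to 74.1), 355 of Lum (122 to 149), 240 of Mmp2 (98.3 to 99.1) and 75.5 of Ctsk (29.5 to 33.4). It also had 5.59 FPKM of Cx3cr1 (others 0.735 to 1.18), 4.69 of Gpr176 (0.821 to 1.38), 1.67 of Cdk1 (1.01 to 1.1) and 10.8 of Itgav (9.58 to 9.73). In all 13 genes the value was above the other 3 libraries fed BAPN alone. Replicate 1 was also the highest of its group in BAPN+Cilengitide and BAPN+SB273005 for Eln (3513 and 3981 FPKM), Col5a2 (116.9 and 137.3) and Fmod (266.2 and 279). The same held for Gpr176 and Cdk1. For Cthrc1, Lox, Lum, Mmp2, Ctsk, Cx3cr1 and Itgav it was not the highest in both of those groups. The cause was not tested.

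BAPN replicate 3 was high for the liver genes Alb (22.9 FPKM, others 5.49 to 8.02), Hpx (13.6, others 1.74 to 2.66) and Vtn (2.99, others 0.339 to 0.722), and for Ide (8.64, others 7.91 to 8). BAPN replicate 4 was high for Ifi207 (4.54, others 2.33 to 2.71).

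BAPN+SB273005 replicate 1 was high for Thbs1 (228 FPKM, others 41.2 to 70.1), Ltbp2 (232, others 110 to 128), Trib3 (3.88, others 2.75 to 2.89) and Igkc (86.2, others 6.3 to 17.6), and low for Tsc22d1 (22.9, others 27.2 to 28). BAPN+SB273005 replicate 2 was low for Ide (6.07 FPKM, others 8.24 to 8.57) and Cst3 (815, others 1130 to 1140). BAPN+SB273005 replicate 4 was low for Smim5 (3.4 FPKM, others 5.13 to 5.27) and was the only one of its group with H2-Ea (1.93 FPKM, others 0).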

How the results depend on the processing

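Against 1224 genes called, 692 common changes and 28 genes called in each group, the counts moved with the processing. Called genes came to 2001 with DESeq2, 654 with limma on FPKM rescaled to TPM, 764 in a 2-group fit, 2125 with the library set as a term and 532 within the libraries without H2-Ea counts. Common changes came to 460 with an FPKM of 5 or more required and to 429 on TPM, and under the other settings stayed within 1.5 times of 692 apart from single left-out libraries. Genes called in each group came to 3 with no filter, 61 with an FPKM of 5 or more, 363 with DESeq2, 14 and 51 with limma on log2(FPKM + 1) and log2(FPKM + 0.1), 17 on TPM and 18 after quantile normalisation. Differences among the BAPN-fed groups came to 1 with an FPKM of 5 or more. With a replicate block, 1282 genes were called, 671 were common, 120 were called in each group and 1 differed among groups. Same-numbered libraries correlated from -0.159 to 0.337 in their deviations from group means. The median was 0.145, against -0.0364 for libraries of unlike number, and 9 of 14 libraries correlated best with their own number. The labels do not say what the numbers stand for, and the main fit left them out. Whether same-numbered samples belong together was not tested. Leaving out 1 library gave 310 to 1751 called genes, 257 to 995 common changes, 2 to 152 genes called in each group and 0 to 26 that differed among groups, with the lowest counts of the first 3 without PBS replicate 2. Without PBS replicates 1, 2 and 3, called genes came to 585, 310 and 613. Judging overlap on TMM-scaled CPM, chosen after seeing the data, gave 730 common changes. Of 103 named genes that were called, 59 held without each library, and the call of 23 others ended only without PBS libraries. Signs reversed for Itgav (-0.072 with the set as a term, -0.056 within the set), Myh7 (0.43 and 0.45) and, without PBS replicate 1, Igkc (0.88, and -6.07 to 0.88 over all left-out libraries) and Cxcl13 (0.95, and -5.14 to 0.95). With 3 PBS libraries, their number limits the precision of every difference.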

Other observations

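Other lists showed few calls. Of 18 genes of endoplasmic reticulum stress and the ATF4 response, 2 were common rises (list median 0.42; 4 rose without BAPN+SB273005 replicate 2), against 5.58% of all genes rising. Trib3, a pseudokinase induced by ATF4, was at 1.62, 2.34 and 3.88 FPKM in BAPN-fed aortas, against 1.39, 1.29 and 1.25 FPKM in PBS aortas, and Asns, or asparagine synthetase, was at 1.82, 3.39 and 8.14 FPKM in BAPN-fed aortas, against 1.64, 1.4 and 1.34 FPKM in PBS aortas. Both were apart from PBS in every library (log2 difference 0.95 ± 0.21, edgeR adjusted p = 0.0149 and log2 difference 1.47 ± 0.39, edgeR adjusted p = 0.0362), and both calls ended without each PBS replicate (edgeR adjusted p of 0.056 to 0.0724 and up to 0.137). That of Asns ended also without BAPN replicates 1, 2 and 4. Of 19 cell cycle genes, 2 rose with overlap (list median 1.02), namely Ccna2, or cyclin A2, by 1.71 ± 0.46 and Cdk1, the mitotic kinase, by 2.21 ± 0.61 (edgeR adjusted p = 0.0364 and 0.0409). Cdk1 was at 0.664, 1.11 and 1.97 FPKM in BAPN-fed aortas (lowest, median and highest), against 0.712, 0.102 and 0.0646 FPKM in PBS aortas, with PBS replicate 1 inside the BAPN-fed range. As no PBS library reached 1 FPKM, Cdk1 was tested only through BAPN-fed libraries, which favours a rise. Without PBS replicate 1 the cell cycle list had 11 rises, and without PBS replicate 2 or 3 the calls of both genes ended (highest edgeR adjusted p of 0.174 for each). Any 1 of 7 libraries ended the Ccna2 call and any 1 of 9 the Cdk1 call.

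Interferon response genes (12 tested), mitochondrially encoded genes (13), cytosolic ribosomal protein genes (25), erythroid (5), T and NK cell (2), white adipocyte (10), brown adipocyte (6), skeletal muscle (9) and Schwann cell genes (6) had 0 called in edgeR, with list medians of 0.51, -0.17, -0.1, 1.19, -0.75, 0.79, 0.43, -1.31 and -0.02. At an unadjusted p of 0.05 or less, their counts were 4, 0, 0, 0, 1, 5, 0, 2 and 0, in the same order. Single PBS libraries set the sign of some of these medians. Without PBS replicate 2 the skeletal muscle median was 3.34, the brown adipocyte median was 1.87 with 2 genes called higher, and the mitochondrially encoded and Schwann cell medians were 0.03 and 0.13. Without PBS replicate 1 the T and NK cell median was 0.81 and the brown adipocyte median 0.03. Of 16 glycolysis genes, 1 fell with overlap (list median -0.17), Pfkm, a phosphofructokinase of muscle, which had 14.9 to 37.1 FPKM in BAPN-fed aortas, against 27.9, 61.5 and 27.1 FPKM in PBS aortas (log2 difference -0.86 ± 0.25, edgeR adjusted p = 0.0456). Its call ended when any 1 of 10 libraries was left out, and most so without PBS replicate 2 (edgeR adjusted p = 0.478). Of 6 dendritic cell and MHC class II genes, 1 rose with overlap (list median 0.73), Cd209a (log2 difference 2.59 ± 0.73, edgeR adjusted p = 0.0443), a call ended by leaving out any 1 of 11 libraries (edgeR adjusted p of 0.0525 to 0.15). Cd209a was under 1 FPKM in every PBS library, so it was tested only through BAPN-fed libraries. Without PBS replicate 1, 5 of the 6 genes rose, with a list median of 2.9, and without PBS replicate 2 or 3, 0 rose, with medians of 0.25 and 0.24. Of 5 chondrocyte genes, Comp was the 1 that rose (list median 2.32).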
